A study of Homo sapiens with 12 samples.

Results

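STAT5B bound 985 chromatin regions that were listed in both untreated SUPT-1 lines and that overlapped no NR3C1 region of prednisolone-treated N642H cells. The members were chosen by measured values, namely being called in these 3 lists. They were taken from the 4542 regions of the untreated STAT5B list of the N642H line, by an overlap of at least 1 bp with the 2267 regions of the untreated WT line. The 8 deposited lists together held 12019 regions, a count that includes sequences other than chromosomes 1 to 22, X and Y. The remaining regions of the untreated N642H list were 367 regions shared with the WT line that lay at NR3C1, 2752 regions listed in the N642H line alone and free of NR3C1, and 438 regions listed in the N642H line alone that lay at NR3C1. Members of the shared, NR3C1-free class are called shared NR3C1-free regions below.

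SUPT-1 is an established human line of malignant T-lymphoblasts. Cells carried a doxycycline-inducible construct, were selected with puromycin, and were induced to overexpress either the STAT5B mutant N642H or wild-type STAT5B (WT). The groups used were, for STAT5B chromatin immunoprecipitation and sequencing (ChIP-seq), N642H cells given prednisolone at 250 µg/ml for 16 hours, WT cells given the same treatment, untreated N642H cells and untreated WT cells, and for NR3C1 the prednisolone-treated N642H and WT cells. All of these cells were induced with doxycycline, and the groups included no cells without a STAT5B construct. Each group was 1 library, so no difference between lines or treatments has a replicate check. The tests below compare classes of regions within these libraries, not conditions.

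STAT5B is a transcription factor that cytokine receptors activate through JAK kinases, after which STAT5 dimers enter the nucleus and bind palindromic DNA elements. The substitution N642H in its SH2 domain is a recurrent activating change in T-cell malignancies. NR3C1 is the glucocorticoid receptor, which binds chromatin when a ligand such as prednisolone is present. The title of the study places both factors in the setting of steroid resistance of T-cell leukaemia.

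Most shared NR3C1-free regions lay at ends of protein-coding genes, and genes of small nuclear RNAs were among the strongest. The promoter sequences under some of the strongest regions are shown first, as up to 60 bases on each side of the summit in the N642H line, read 5′ to 3′ on the strand of the gene from RefSeq promoter windows of GRCh38.p14, the release of hg38. Capitals mark a STAT element (TTCNNNGAA) or an ETS core (CCGGAAG), each searched on both strands. The first 4 are among the strongest members in the N642H list (GTF3C3, chr2:196799679-196799799, minus strand; AURKAIP1, chr1:1375314-1375434, minus strand; CLTC, chr17:59619751-59619871, plus strand) and the member of highest −log10 q in the WT list (DRAP1, chr11:65919302-65919422, plus strand), and they are shown because strong members need not hold either element near the summit.
GTF3C3: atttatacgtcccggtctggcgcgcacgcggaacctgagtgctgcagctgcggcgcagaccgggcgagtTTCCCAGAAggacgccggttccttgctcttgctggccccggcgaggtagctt
AURKAIP1: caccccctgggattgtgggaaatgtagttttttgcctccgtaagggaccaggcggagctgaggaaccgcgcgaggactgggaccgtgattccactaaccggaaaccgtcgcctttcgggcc
CLTC: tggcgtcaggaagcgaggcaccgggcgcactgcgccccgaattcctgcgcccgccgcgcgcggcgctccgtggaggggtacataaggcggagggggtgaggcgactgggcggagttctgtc
DRAP1: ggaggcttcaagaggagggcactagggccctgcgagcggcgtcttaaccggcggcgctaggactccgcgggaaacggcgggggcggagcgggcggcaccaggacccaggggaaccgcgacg
Of these 4 stretches, that of GTF3C3 held a STAT element and none held an ETS core, although the whole windows of GTF3C3 and AURKAIP1 held one.

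The next 4 are the strongest other members by N642H −log10 q with an ETS core within 50 bp of the summit, and were chosen after their values were seen. They lie at SNX12 (chrX:71068505-71068584, minus strand), LYSMD1 (chr1:151165922-151166042, minus strand), METTL9 (chr16:21599452-21599572, plus strand) and FRG1 (chr4:189940722-189940842, plus strand).
SNX12: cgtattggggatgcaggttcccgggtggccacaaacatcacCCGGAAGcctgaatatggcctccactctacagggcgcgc
LYSMD1: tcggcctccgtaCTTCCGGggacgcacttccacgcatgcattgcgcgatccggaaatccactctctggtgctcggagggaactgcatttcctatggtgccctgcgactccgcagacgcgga
METTL9: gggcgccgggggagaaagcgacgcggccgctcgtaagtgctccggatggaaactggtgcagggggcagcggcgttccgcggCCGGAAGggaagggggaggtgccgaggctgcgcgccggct
FRG1: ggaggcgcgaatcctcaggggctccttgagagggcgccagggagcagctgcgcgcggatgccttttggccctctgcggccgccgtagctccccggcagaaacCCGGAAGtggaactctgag
Each of the 4 holds 1 core, in either orientation.

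The last 3 are strong regions with a STAT element within 50 bp of the summit, chosen after their values were seen. AAGAB, which ranked between ZDHHC6 and PSMD3 by N642H −log10 q, also had such an element and is not shown. The 3 regions shown lie at IGF2BP3 (chr7:23470648-23470741, minus strand), ZDHHC6 (chr10:112446969-112447089, minus strand) and PSMD3 (chr17:39980709-39980829, plus strand).
IGF2BP3: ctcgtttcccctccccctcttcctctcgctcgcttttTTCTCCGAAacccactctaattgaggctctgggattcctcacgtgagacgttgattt
ZDHHC6: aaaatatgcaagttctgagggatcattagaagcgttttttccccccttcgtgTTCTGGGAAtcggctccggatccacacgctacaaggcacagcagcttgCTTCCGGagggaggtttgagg
PSMD3: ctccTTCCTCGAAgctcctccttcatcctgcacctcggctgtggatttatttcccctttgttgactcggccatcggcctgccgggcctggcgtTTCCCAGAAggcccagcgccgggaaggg
The stretch of ZDHHC6 holds 1 STAT element and 1 ETS core, and that of PSMD3, a subunit of the proteasome, holds 2 STAT elements.

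The strength of each region is the authors' fold enrichment of ChIP pileup over local background, with its −log10 q. These values chose the members through the lists and are given as a description. Each fold is relative to its own library, so folds of 2 lists given together are not a measured difference. In the untreated N642H list the shared NR3C1-free regions had a median fold of 6.70, from 3.22 to 16.3, and a median −log10 q of 8.41, from 2.12 to 49.4. In the untreated WT list the regions they overlapped had a median fold of 6.56, from 3.76 to 17.5, and a median −log10 q of 5.69. The fold was higher in the N642H list at 524 of the 985 regions. The order of strength was loosely shared between the lines, with a Spearman correlation across regions of 0.15 for the fold and 0.27 for −log10 q. Both lists report only regions past the authors' threshold, which narrows the range of values. For comparison, the median N642H fold was 7.73 at the 367 shared regions with NR3C1 and 5.89 at the 2752 N642H-only NR3C1-free regions.

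**Figure D1:**
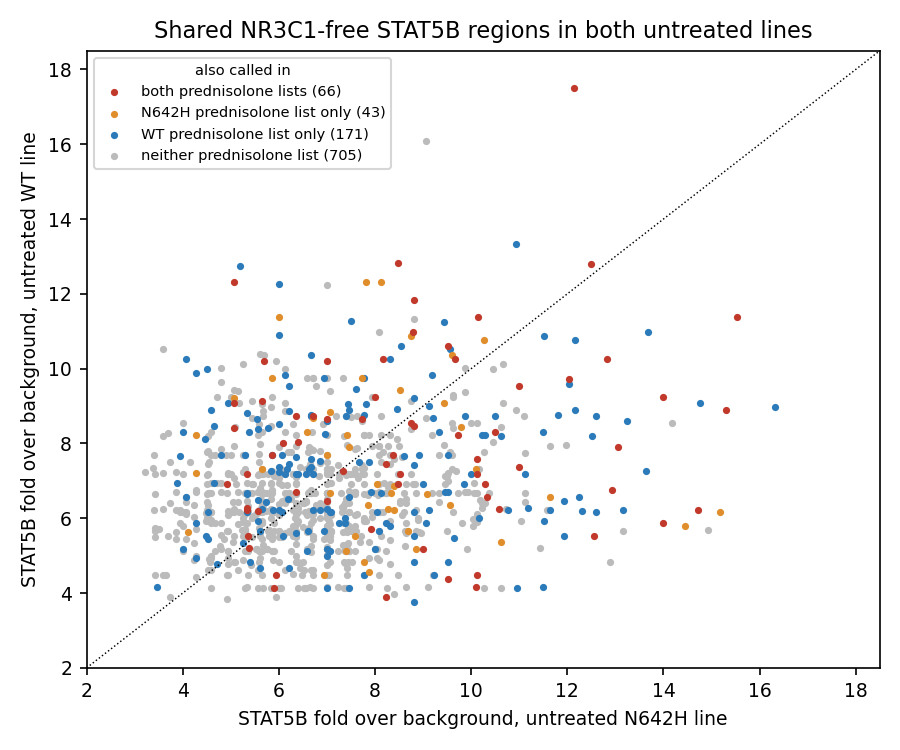
Each point is 1 of the 985 shared NR3C1-free regions, with the STAT5B fold over background in untreated N642H cells on the horizontal axis and in untreated WT cells on the vertical axis. Colours give the prednisolone STAT5B lists that also held the region, and 705 regions were in neither.

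The summits of the 2 lines lay close together, with a median gap of 54 bp, and 755 of the 985 pairs (76.6%) were within 100 bp. The smallest overlap that made a region a member was 3 bp, 68 members overlapped their WT region by less than 50 bp, and the median overlap was 126 bp. Just outside the rule, 51 N642H regions lay within 100 bp of a WT region without overlapping it, the nearest with no base between them. On the NR3C1 side, the nearest NR3C1 region to a member was 9 bp away and the smallest overlap that removed a shared region was 14 bp. Most members were far from that edge, with 77 within 10 kb of an NR3C1 region and a median distance of 221229 bp.

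Most of the 15 members of highest N642H −log10 q lay at promoters or at small RNA genes. Over all members, however, the strongest of 5 groups of 197 by N642H −log10 q had the lowest share at gene ends (58.9%), and the 4 weaker groups had between 63.5 and 78.7%. The highest −log10 q among the members in the N642H list was at chr1:16513900-16514367, at the U1 small nuclear RNA gene RNU1-1. There the STAT5B fold was 7.37 in N642H cells with prednisolone and 15.5 without, and 13.7 in WT cells with prednisolone and 11.4 without. The promoter of AURKAIP1, which encodes a protein of the small mitochondrial ribosomal subunit, had the highest fold of all members in the N642H list. Its fold was 16.3 in untreated N642H cells, and it was 10.5 in WT cells with prednisolone and 8.98 in untreated WT cells. It was not in the prednisolone list of the N642H line. At GTF3C3, a subunit of the RNA polymerase III factor TFIIIC, the fold was 7.71 in N642H cells with prednisolone and 14.7 without, and 12.1 in WT cells with prednisolone and 6.21 without. Thus the promoter of GTF3C3 was listed in all 4 STAT5B libraries, with the lowest fold of the 4 in untreated WT cells.

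Other promoters among these 15 members were those of B4GALT7, a galactosyltransferase of proteoglycan synthesis, and CLTC, the clathrin heavy chain. The fold at B4GALT7 was 7.91 in N642H cells with prednisolone and 15.3 without, and 6.72 in WT cells with prednisolone and 8.90 without. The fold at CLTC was 8.31 in N642H cells with prednisolone and 13.1 without, and 5.14 in WT cells with prednisolone and 7.91 without. Both promoters were in all 4 STAT5B lists. C17orf75 was as well, with folds in the same order of libraries of 6.94, 14.0, 4.49 and 9.23. EIF3F, a subunit of the translation initiation factor eIF3, had a fold of 8.40 in N642H cells with prednisolone, 15.2 in untreated N642H cells and 6.16 in untreated WT cells, and was absent from the WT prednisolone list. PSMG3, a proteasome assembly chaperone, showed the same pattern of lists, with folds of 7.91, 14.4 and 5.80. ITGB3BP, a centromere protein, had folds of 13.7 in untreated N642H cells, 8.82 in WT cells with prednisolone and 11.0 in untreated WT cells. The same group held regions away from promoters and small RNA genes. A region inside ZFYVE28, 5493 bp from its start site, had a fold of 14.8 in untreated N642H cells, 6.02 in WT cells with prednisolone and 9.07 in untreated WT cells. A region at chr1:146387332-146387693, 42789 bp from the nearest protein-coding gene PPIAL4H, had a fold of 14.9 in untreated N642H cells and 5.69 in untreated WT cells, and was in neither prednisolone list.

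In the WT list the strongest member was the promoter of DRAP1, a subunit of the NC2 complex that represses transcription through TBP. Its fold was 5.53 in N642H cells with prednisolone and 12.1 without, and 10.7 in WT cells with prednisolone and 17.5 without. INTS12, a subunit of the Integrator complex that processes small nuclear RNAs, was listed in all 4 STAT5B libraries with folds of 8.42 in N642H cells with prednisolone and 8.47 without, and 9.51 in WT cells with prednisolone and 12.8 without. A region inside TEX14 had a fold of 9.06 in untreated N642H cells and 16.1 in untreated WT cells, and was in neither prednisolone list. CDK12, a kinase of RNA polymerase II, was in all 4 STAT5B lists. Its fold was 5.47 in N642H cells with prednisolone and 5.06 without, and 6.27 in WT cells with prednisolone and 12.3 without. The others of the 10 members of highest WT −log10 q lay at or nearest to SELENOH, SLC35E2B, PLXNB2, MRPL44, RNU1-1 and the uncharacterised locus LOC128966727. Their folds in untreated WT cells were between 11.4 at RNU1-1 and 13.3 at SELENOH.

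Small nuclear RNA genes recurred among these regions. These RNAs are the cores of the spliceosome particles that remove introns, and RNA polymerase II or III makes them from short promoters of their own. The gene class was chosen after the strongest regions were seen, so its counts are a description. Of the 985 regions, 24 (2.44%) lay within 250 bp of a small nuclear RNA gene, against 13 (3.54%) of the 367 shared regions with NR3C1 and 4 (0.145%) of the 2752 N642H-only NR3C1-free regions. The 24 regions had a median N642H fold of 8.51, and 15 of them were in the strongest of 5 groups of 197 members by −log10 q. They covered the U1 genes RNU1-1, RNU1-2 and RNU1-4 and U1 variants, the U5 genes RNU5A-1, RNU5B-1, RNU5D-1, RNU5E-1 and RNU5F-1, RNU4-2 of U4, and RNU6-2 and RNU6-8 of U6. They also covered RNU11, RNU12 and RNU4ATAC, whose RNAs belong to the minor spliceosome.

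RNU11 had a fold of 6.74 in N642H cells with prednisolone and 14.0 without, and 6.27 in WT cells with prednisolone and 5.87 without. RNU1-2 was also in all 4 STAT5B lists, with a fold of 6.69 in N642H cells with prednisolone and 12.03 without, and 3.42 in WT cells with prednisolone and 9.71 without. RNU5F-1 had a fold of 8.30 in untreated N642H cells, 7.5 in WT cells with prednisolone and 10.3 in untreated WT cells. RNU12 had a fold of 8.39 in untreated N642H cells and 7.59 in untreated WT cells, and was in neither prednisolone list. Among the 24 regions, 4 were in the N642H prednisolone list and 11 in the WT prednisolone list. U1 genes and several others exist in near-identical copies between which reads can be shared, so the value of a single copy is uncertain.

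Genes of other small RNAs were found too. A transfer RNA gene, which RNA polymerase III transcribes, lay within 250 bp of 21 shared NR3C1-free regions (2.13%) and of 40 (1.45%) N642H-only NR3C1-free regions. It lay that near to 0 of the 367 shared regions with NR3C1. An approximate limit of 3 counts in 367, which is not a Clopper-Pearson limit, allows a share of up to 0.817% there. The strongest of the 21 members, beside TRF-GAA1-6 and TRN-GTT2-6, had a fold of 7.30 in N642H cells with prednisolone and 11.0 without, and 8.08 in WT cells with prednisolone and 9.55 without. This region also lay 89 bp from NDUFS7, a subunit of respiratory complex I. Small nucleolar RNA genes were at 6 shared NR3C1-free regions (0.609%), of which 4 belonged to the U3 family SNORD3 and 1 to U8 (SNORD118). They were at 1 (0.272%) of the 367 shared regions with NR3C1 and at 5 (0.182%) N642H-only NR3C1-free regions. These counts are small and were not tested. SNORD3D had a fold of 7.86 in N642H cells with prednisolone and 12.9 without, and 6.84 in WT cells with prednisolone and 6.76 without. SNORD3C had the higher fold in the prednisolone list of both lines, with 9.55 in N642H cells with prednisolone and 5.37 without, and 14.9 in WT cells with prednisolone and 5.22 without. The SNORD3 genes are near-identical copies as well.

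Shared NR3C1-free regions lay at gene ends more often than both classes they were tested against. A gene end is either end of a protein-coding gene, and 55.7% of all 4542 regions had their summit within 1 kb of one. The share was 679 of 985 (68.9%, 95% interval 65.9 to 71.8%) for shared NR3C1-free regions and 1653 of 2752 (60.1%, 58.2 to 61.9%) for N642H-only NR3C1-free regions. This difference passed a two-sided Fisher's exact test over regions (odds ratio 1.48, p = 1.11e-06 after Benjamini-Hochberg adjustment over 9 tests). At shared regions with NR3C1 the share was 135 of 367 (36.8%, 31.8 to 41.9%), and the odds ratio of shared NR3C1-free regions against them was 3.81 (adjusted p = 4.83e-26, Fisher's exact test). Intervals are exact Clopper-Pearson intervals, which cover the counting of regions in single libraries and no variation between cultures. Of the remaining members, 145 (14.7%) lay inside genes and 161 (16.3%) between genes.

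**Figure D2:**
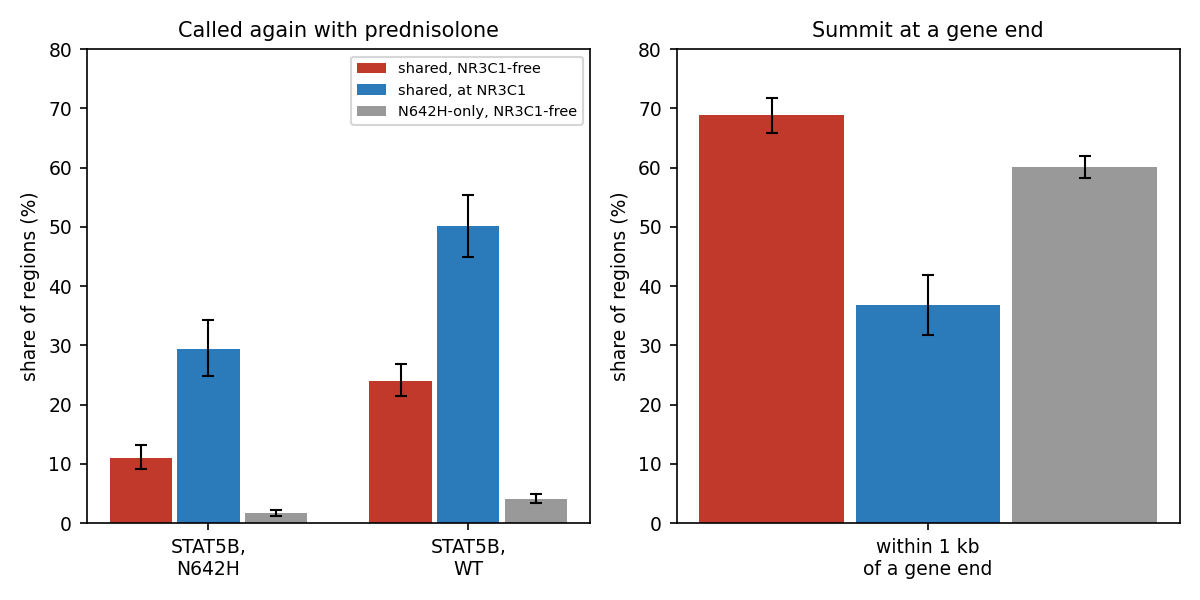
Bars are shares of regions with exact 95% intervals for the 985 shared NR3C1-free, 367 shared NR3C1 and 2752 N642H-only NR3C1-free regions of the untreated N642H STAT5B list. The left panel gives regions called again by STAT5B with prednisolone in each line, where shared NR3C1-free regions are intermediate, and the right panel gives summits within 1 kb of a gene end, where they are highest.

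The summits gathered just upstream of transcription start sites. Start sites came from the RefSeq promoter windows, which were matched for 15843 protein-coding genes and cover 963 of the 985 regions. Of these 963, 323 (33.5%) had the summit within 100 bp of a start site, 507 (52.6%) within 250 bp and 626 (65.0%) within 1 kb. Within 1 kb, 467 summits were upstream and 159 downstream, with a median position of −68 bp. The median distance to the nearest start site was 212 bp for shared NR3C1-free regions, 391 bp for N642H-only NR3C1-free regions and 16015 bp for shared regions with NR3C1. Start sites on both strands lay within 1 kb of 196 members (20.4%), against 18.8% of N642H-only NR3C1-free regions and 12.7% of shared regions with NR3C1. For this count, start sites of genes of any type were used, not those of protein-coding genes alone. Examples are the histone pair H2BC12 and H4C9, and the mitochondrial ribosomal pair MRPL46 and MRPS11, each of which shared 1 region. The second pair was chosen after its values were seen.

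**Figure D3:**
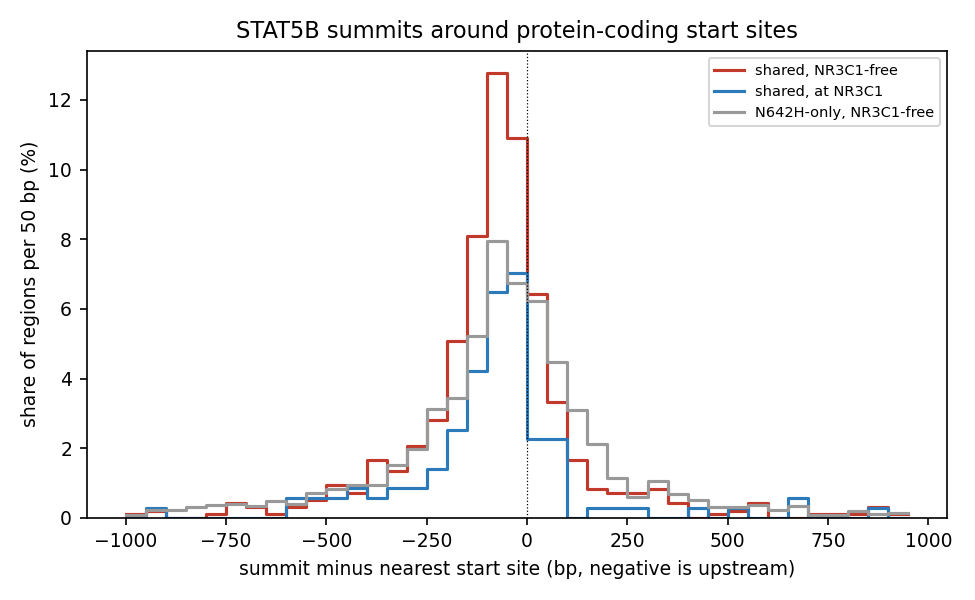
Lines give the share of regions in each class, per 50 bp, by the distance of the STAT5B summit from the nearest protein-coding start site, with negative distances upstream. The shared NR3C1-free regions peak upstream of the start site, with a median of −68 bp within 1 kb, and their peak is the highest of the 3 classes.

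The canonical STAT element was about as frequent under these promoters as in all promoters. Motifs were searched only in promoter windows of 300 bases, from 250 before to 50 after a start site, and not under other regions. Of the 985 regions, 454 had their summit inside such a window. The element TTCNNNGAA was in 31 of these windows (6.83%, 4.69 to 9.55%), and it was in 6.79% of all 22199 protein-coding promoter windows. It was in 73 of 920 (7.93%, 6.27 to 9.87%) windows at N642H-only NR3C1-free regions, with an odds ratio of 0.85 (adjusted p = 0.581, Fisher's exact test). It was in 6 of 88 windows (6.82%, 2.54 to 14.3%) at shared regions with NR3C1 (odds ratio 1.00, adjusted p = 1, Fisher's exact test). Neither difference passed the test, and with 6 windows the second comparison cannot show a moderate difference. The ratio of the second comparison fell to the other side of 1 under 4 other settings, the lowest being 0.801. Where the element was present among the 31, it lay within 50 bp of the summit in 20 and at a median distance of 39 bp. The counts were 33 of 73 (median 63 bp) at N642H-only NR3C1-free regions and 2 of 6 (median 79.5 bp) at shared regions with NR3C1. Element and summit lay in the same window of 300 bases, which limits the distance, and this difference was not tested.

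Of the motifs searched, the ETS core CCGGAAG had the widest gap in percentage points between the members' windows and all windows. It was in 167 of the 454 windows (36.8%, 32.3 to 41.4%), in 27.7% of windows at N642H-only NR3C1-free regions, in 37.5% of those at shared regions with NR3C1 and in 12.8% of all windows. The motifs other than the STAT element were described without a test. Base composition differed, with a median GC of 65% in the members' windows and 62.3% in all windows. Within the GC range of 58.3 to 70%, the interquartile range of the members' windows, the core was in 92 of 239 members' windows (38.5%) and in 17.8% of all 8447 windows. The core lay within 50 bp of the summit in 85 of the 167 windows (50.9%), at a median distance of 50 bp. The counts were 123 of 255 (48.2%, median 52 bp) at N642H-only NR3C1-free regions and 15 of 33 (45.5%, median 61 bp) at shared regions with NR3C1. Core and summit lay in the same promoter window, which limits the distance, and these differences were not tested. Members with the core had a median N642H fold of 6.99 and members without it 6.70.

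Other elements differed from all windows but less from the most similar class. ATGGCGGC, the core bound by YY1, was in 11.5% of the members' windows, 9.25% of windows at N642H-only NR3C1-free regions and 3.91% of all windows. ACTACAA, part of the element of ZNF143, which is a known activator of small nuclear RNA genes, was in 6.83, 6.64 and 2.84% in the same order. The CRE element TGACGTCA was in 4.85, 5.11 and 2.26%, and the TATA element TATAAA in 4.85, 4.03 and 9.47%. CCAAT was in 30.0, 34.3 and 34.7%. Within GC 58.3 to 70%, the members' windows and all windows had YY1 cores in 11.3 and 5.13%, ZNF143 elements in 7.53 and 3.37%, CRE elements in 4.60 and 2.98% and TATA elements in 3.35 and 4.38%. The STAT element TTCNNNGAA was in 4.60 and 5.53% in the same order and GC range. The palindromic glucocorticoid receptor element was in 2 of the 454 windows (0.441%) and in 0.293% of all windows. A match describes letters only and does not show binding of the factor.

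**Figure D4:**
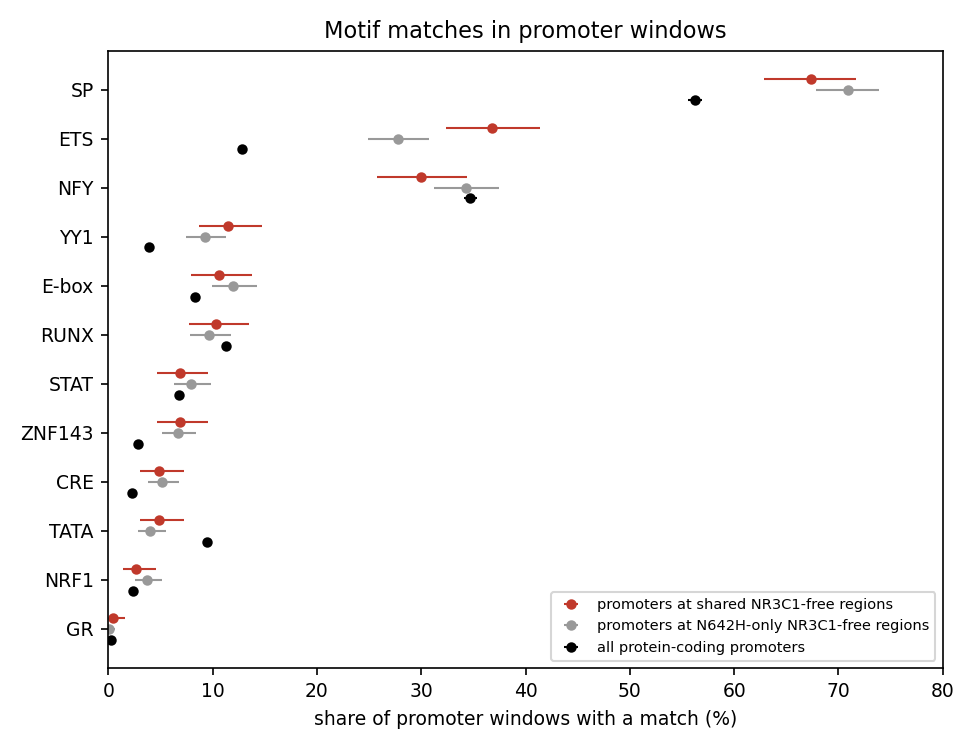
Points give the share of promoter windows with each motif, with exact 95% intervals, for windows at shared NR3C1-free regions, at N642H-only NR3C1-free regions and for all protein-coding promoters. The ETS core stands at 36.8% against 12.8% of all promoters, while the STAT element stands at 6.83% against 6.79%.

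Genes with a shared NR3C1-free region within 1 kb of an end numbered 826 of 20037 protein-coding genes (4.12%), and parts of the protein-making machinery were above that share. The lists of genes were chosen with earlier results in view and their counts have no test. Of 77 mitochondrial ribosomal protein genes 16 had such a region (20.8%), and of 84 cytosolic ribosomal protein genes 14 had one (16.7%). Shares that high need not be particular to the shared regions, since 35 and 44 genes of these lists had a region anywhere in the untreated N642H list. The strongest of the first list was MRPS31, with a fold of 6.31 in N642H cells with prednisolone and 10.1 without, and 6.27 in WT cells with prednisolone and 11.4 without. Among cytosolic ribosomal proteins RPL18 had the highest −log10 q, with folds of 6.85 in untreated N642H cells, 10.1 in WT cells with prednisolone and 6.21 in untreated WT cells. RPL4, RPS15 and RPL10A were in both untreated lists alone, with N642H folds of 5.86, 7.43 and 6.70 and WT folds of 7.25, 7.19 and 6.16.

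Translation factors had a region at 8 of 71 genes (11.3%), led by EIF3F and by EIF2D, whose fold was 7.07 in N642H cells with prednisolone and 8.82 without, and 5.34 in WT cells with prednisolone and 8.48 without. EIF4A2, an RNA helicase of initiation, had a fold of 6.66 in untreated N642H cells, 10.8 in WT cells with prednisolone and 10.4 in untreated WT cells. Of 20 aminoacyl-tRNA synthetase genes, AARS1 and YARS1 had a region. RNA polymerase and Mediator subunits had one at 11 of 65 genes (16.9%). POLR2A, the largest subunit of RNA polymerase II, had a fold of 5.53 in N642H cells with prednisolone and 6.99 without, and 10.2 in WT cells with prednisolone and 8.64 without. MED23, a Mediator subunit, had a fold of 11.5 in untreated N642H cells, 8.08 in WT cells with prednisolone and 10.9 in untreated WT cells. Splicing factors had a region at 7 of 71 genes (9.86%), among them SF3B6 and SF3A3 of the U2 particle. Their folds were 11.9 and 9.33 in untreated N642H cells and 5.52 and 8.30 in untreated WT cells. Both were also in the WT prednisolone list, with folds of 8.14 and 8.09, and absent from the N642H prednisolone list. For the whole untreated N642H list the counts were 32 translation factor genes, 24 polymerase and Mediator genes and 29 splicing factor genes. These shares too need not be particular to the class, and no share of all genes is given for the whole list.

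Histone genes had a region at 9 of 74 (12.2%), against 25 of 74 for the whole untreated N642H list. H4C12 was in all 4 STAT5B lists, with a fold of 8.20 in N642H cells with prednisolone and 7.34 without, and 9.28 in WT cells with prednisolone and 7.25 without. Genes of the respiratory chain and its assembly had a region at 8 of 100 (8%), led by NDUFS7 and UQCRH. Proteasome subunits had one at 3 of 40 genes (7.5%), namely PSMD3, PSMD11 and PSMB7. Chromatin regulators had one at 3 of 30 (10%), against 17 of 30 for the whole untreated N642H list. Among the 3, KMT2D, a histone H3 lysine methyltransferase, had a fold of 6.01 in N642H cells with prednisolone and 10.1 without, and 9.84 in WT cells with prednisolone and 7.60 without. DNA replication and repair genes had a region at 4 of 30, including ATR and MSH6, G1 cell cycle genes at 2 of 20 (E2F3 and CDKN2C), and cytosolic chaperones at 1 of 20 (HSP90AB1).

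In the pathways that the study addressed, 1 or 2 genes per list had a region of this class, and these shares are near or somewhat above the 4.12% of all genes. Among 30 STAT5 target and cytokine feedback genes 2 did (6.67%), against 12 with any untreated N642H STAT5B region. They were SPRED2, an inhibitor of RAS-MAPK signalling, with folds of 6.92 in untreated N642H cells and 8.53 in untreated WT cells, and PIM1, a serine/threonine kinase, with 6.58 and 5.18 in the same order. A single region near the neighbouring genes STAT3 and STAT5A gave the 2 of 24 JAK-STAT pathway genes (8.33%), with a fold of 6.35 in untreated N642H cells and 6.68 in untreated WT cells. Of 30 glucocorticoid response genes, IRS2 and CXCR4 had a region (6.67%). The fold at IRS2 was 8.05 in untreated N642H cells and 6.61 in untreated WT cells. CXCR4, a chemokine receptor, had a region at the end of its span with 5.83 in untreated N642H cells and 6.95 in untreated WT cells. It had another at chr2:136116210-136116553, inside its span and 192 bp upstream of a start site, with 7.41 in untreated N642H cells and 5.29 in untreated WT cells. Of 20 BCL2 family genes, BAD, which promotes apoptosis, had one (5%), with a fold of 6.60 in untreated N642H cells and 5.19 in untreated WT cells. Of the listed members of these 4 lists, 0 were called again in either prednisolone STAT5B list. Among all shared NR3C1-free regions 71.6% were in neither prednisolone STAT5B list, so a count of 0 in so few regions says little. NOTCH1, a receptor of T-cell development, was the 1 of 30 T-cell identity genes (3.33%), with folds of 10.1 and 7.32 in untreated N642H and untreated WT cells. Of 20 genes of other blood cells and of 20 genes of other tissues, 0 had a region. With 4.12% of all genes as background, a count of 0 in 20 genes says little, and peak lists hold no expression, so the labelled cell type was not checked by these counts.

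**Figure D5:**
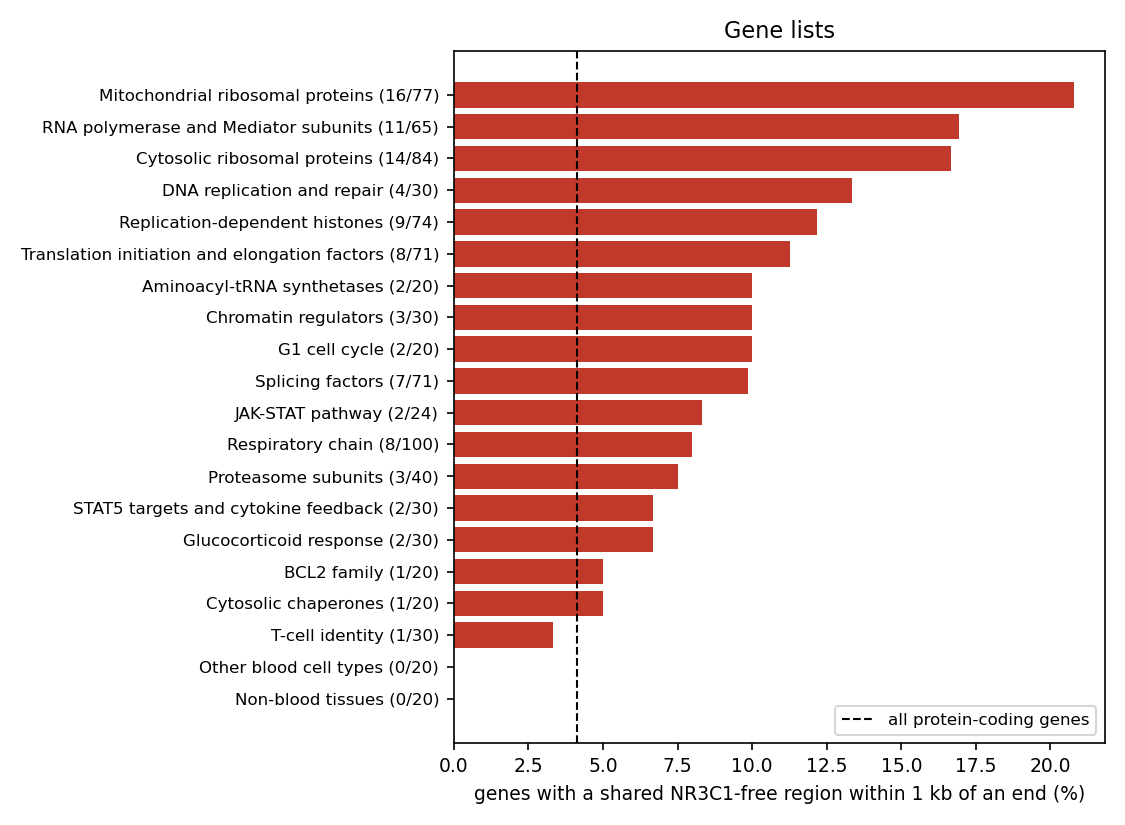
Bars give the share of genes in each list with a shared NR3C1-free region within 1 kb of an end, with counts in brackets, and the dashed line marks the 4.12% of all protein-coding genes. Mitochondrial ribosomal proteins (20.8%), RNA polymerase and Mediator subunits (16.9%) and cytosolic ribosomal proteins (16.7%) are highest, and the lists of other blood cells and other tissues are at 0.

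STAT5B was called again with prednisolone at a minority of these regions, more often than at N642H-only NR3C1-free regions and less often than at shared regions with NR3C1. In N642H cells with prednisolone, 109 of 985 shared NR3C1-free regions were called again (11.1%, 9.17 to 13.2%), where all 4542 regions gave 6.87%. The share was 45 of 2752 (1.64%, 1.20 to 2.18%) for N642H-only NR3C1-free regions, with an odds ratio of 7.49 (adjusted p = 2.53e-31, Fisher's exact test). It was 108 of 367 (29.4%, 24.8 to 34.4%) for shared regions with NR3C1, with an odds ratio of 0.298 (adjusted p = 1.44e-14, Fisher's exact test). In WT cells with prednisolone, 237 shared NR3C1-free regions were called again (24.1%, 21.4 to 26.9%), where all regions gave 12.4%. The other shares were 113 of 2752 (4.11%, 3.40 to 4.92%; odds ratio 7.40, adjusted p = 7.75e-65) and 184 of 367 (50.1%, 44.9 to 55.4%; odds ratio 0.315, adjusted p = 6.21e-19, Fisher's exact tests). The prednisolone lists held 446 regions in N642H cells and 766 in WT cells, so the shares of the 2 lines are not on equal lists. The genome background solved from the deposited columns was lower with prednisolone. It was 0.39 against 0.98 untreated in N642H cells, and 0.35 against 0.64 untreated in WT cells. Whether this lowered the shares called again was not tested. Within 5 groups by untreated −log10 q, the odds ratios against N642H-only NR3C1-free regions were 4.06 in N642H cells (95% interval 2.78 to 5.93) and 4.99 in WT cells (3.86 to 6.44). Members had to be in the untreated WT list, and N642H-only regions had to be absent from it. A higher share of members in other STAT5B lists, of either line, was therefore favoured by the rule. Shared regions with NR3C1 had to be in the NR3C1 list of prednisolone-treated N642H cells, and members had to be absent from it. A lower share of members in other lists of treated cells was favoured in turn. All ratios and p-values of calling again are therefore given as a description, not as independent support.

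Strength and calling again went together among the members. From the weakest to the strongest of 5 groups of 197 members by N642H −log10 q, 2.03, 6.60, 7.11, 13.2 and 26.4% were called again in N642H cells with prednisolone. In WT cells with prednisolone the shares over the same groups were 8.63, 18.8, 18.3, 23.4 and 51.3%. Position made less difference, since 11.6% of members at gene ends and 9.80% of those away from them were called again in N642H cells, and 24.9 and 22.2% in WT cells. In both prednisolone lists 66 members (6.70%) were called again, and 705 (71.6%) were in neither. Viewed from the prednisolone lists, 110 of the 446 N642H regions (24.7%) and 244 of the 766 WT regions (31.9%) lay at a shared NR3C1-free region.

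Among the 66 members in both prednisolone lists, the highest N642H −log10 q with prednisolone was at the start of CPPED1, a protein phosphatase. Its fold was 11.6 in N642H cells with prednisolone and 10.1 without, and 8.28 in WT cells with prednisolone and 4.16 without. TMEM41A followed, with a fold of 10.9 in N642H cells with prednisolone and 6.70 without, and 7.78 in WT cells with prednisolone and 8.73 without. CENPU, a centromere protein, had a fold of 10.3 in N642H cells with prednisolone and 11.0 without, and 11.1 in WT cells with prednisolone and 7.38 without. DCP1A, an mRNA decapping factor, was nearly even, with 9.20 in N642H cells with prednisolone and 7.996 without, and 8.75 in WT cells with prednisolone and 9.23 without. NDUFAF1, an assembly factor of respiratory complex I, had a fold of 8.34 in N642H cells with prednisolone and 5.33 without, and 11.2 in WT cells with prednisolone and 6.21 without. The others were at or nearest to SSBP2, KCNN1, OR4F15, SNORD3C and INTS12, with folds of 8.42 to 9.73 in N642H cells with prednisolone.

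The rule removed NR3C1 regions of the N642H line, and the NR3C1 list of WT cells with prednisolone was left as a separate readout. Of the 985 regions, 17 lay at one of its 995 regions (1.73%, 1.01 to 2.75%), where all 4542 regions gave 5.15%. Among N642H-only NR3C1-free regions 8 of 2752 lay at a WT NR3C1 region (0.291%, 0.126 to 0.572%), and the odds ratio was 6.02 (adjusted p = 1.89e-05, Fisher's exact test). These 2 classes differ by rule in having a STAT5B call in the WT line, so this ratio is not independent of the rule. The NR3C1 fold in WT cells with prednisolone at the 17 regions was 4.51 to 9.21, with a median of 6.98. The strongest lay 16274 bp from AHI1, with an NR3C1 fold of 9.21, and was in neither prednisolone STAT5B list. At the promoter of SMG8, a factor of nonsense-mediated mRNA decay, the NR3C1 fold was 7.66. The STAT5B fold there was 7.30 in N642H cells with prednisolone and 6.40 without, and 13.6 in WT cells with prednisolone and 8.03 without. Regions inside ABHD12B, GALNT6 and PCMTD2 had NR3C1 folds of 8.93, 8.13 and 7.11. The region of the U1 variant locus LOC124904613 was also among the 17, with an NR3C1 fold of 5.87.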

How the data were processed

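Of 12 samples, 8 were ChIP libraries and 4 were inputs, which were not used here. BWA, MACS2 and deepTools with hg38 are named in the submitters' processing notes, and their versions are not given in the sources used here. Each deposited list gives, per region, the span, the summit, a score of 10 times −log10 q, the −log10 p and −log10 q, and a fold enrichment (a ratio over local background). All were computed by the authors for each library, and serve here for description, ranking and filtering within a list. Read depths are unknown. The lowest −log10 q was 2, and no q-value was recomputed.

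Regions of chromosomes 1 to 22, X and Y were compared by an overlap of at least 1 bp, with Python 3.11.15, pandas 2.3.3 and scipy 1.17.1. Coordinates count from 1 on hg38. Shares have exact Clopper-Pearson 95% intervals. The 9 Fisher's exact tests were two-sided and adjusted together, with a threshold of 0.05, and treat regions as independent. Overlap and tests were checked on simulated data. Mantel-Haenszel ratios used statsmodels 0.14.6. Local background was solved from the deposited fold and p-value columns. It was at least 10 times the genome background at 0 of the 985 members, and at 0 of the N642H and 2 of the WT prednisolone STAT5B regions matched to them. Gene spans of 20037 protein-coding genes and promoter windows came from RefSeq GRCh38.p14. The windows used include none on chromosome 8, where 22 members lie.

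The members, gene lists and tests were chosen with earlier results of these data known. Named genes are the nearest to the 15 strongest members in the N642H list, the 10 strongest in the WT list, the 10 strongest in both prednisolone lists and the 5 strongest in the WT NR3C1 list, and up to 6 per gene list. Small RNA genes and the sequences with an element near the summit were added after values were seen. Not every gene under this rule is reported. Alternatives were other overlap rules, a stricter −log10 q, equal list lengths, other distances and motifs, and grouping by strength.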

Additional observations from a re-analysis of the deposited data

How the results depend on the processing

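Of 84 alternative values, 79 kept their direction, their side of the threshold or, for the number of members, came within 1.5 times of it. The number of members was 562 with −log10 q of at least 5 in all lists, and between 660 and 1111 in the other settings against 985 as reported. The STAT element comparison with shared regions at NR3C1, near 1 as reported, passed to the other side of 1 with either TTCNNNGAA or its form with 1 more spacer base (odds ratio 0.801), with an overlap of 50% of the shorter region (0.952), with regions extended by 250 bp (0.858) and with untreated lists of equal length (0.852). It passed the threshold in none of these, and the cause was not tested. For calling again with prednisolone against N642H-only NR3C1-free regions, the odds ratios ranged from 4.06 to 8.38 in N642H cells and from 4.99 to 8.06 in WT cells. The lowest value of each came from grouping by −log10 q, and for N642H cells untreated lists of equal length gave 4.85. The gene end ratios ranged from 1.30 to 1.64 and from 2.93 to 3.93. Requiring no NR3C1 region in either line leaves no value for the WT NR3C1 test by construction. No paired analysis was possible because each group holds 1 library. A region missing from a list is a region below the authors' threshold at unknown depth, not a region without binding.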
